A study of Mus musculus with 4 samples.

Results

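Peaks of histone 3 phosphorylated at serine 10 (H3S10ph) were examined in gene deserts of the mouse genome, the stretches that lie far from any protein-coding gene. A desert peak was an autosomal peak of at most 2000 bp whose every base was more than 100 kb from the body of each protein-coding gene of GENCODE release M21 on mm10. This rule kept 19907 of the 92241 autosomal peaks of that width, and of 93418 peaks deposited in all. The list of unstimulated sample 1 held 2455 desert peaks, that of unstimulated sample 2 held 8409, that of stimulated sample 1 held 2403 and that of stimulated sample 2 held 6640. For comparison, 45153 peaks lay wholly within the body of a protein-coding gene and are called genic below.

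The samples were gastrocnemius muscles of male C57BL/6 mice of 5 months, all anaesthetised with Zoletil at 10 mg/kg and xylazine at 20 mg/kg. Stimulated muscles had performed 50 eccentric contractions, in which the muscle is lengthened while a tetanus of 600 ms at 100 Hz holds it active, and were frozen immediately afterwards. Unstimulated muscles were the contralateral ones. Each of the 4 samples, 2 per condition, pooled muscles of 6 mice, so the spread between samples is one between pools, and whole muscle also contains nuclei other than myonuclei. The lists hold positions, fold enrichment over the background, −log10 p and −log10 q of called peaks, with no read counts, so depth is unknown and no expression values are at hand to check the tissue by marker genes.

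Gene deserts are long intervals without protein-coding genes. They are as a rule rich in A and T, rich in interspersed repeats and poor in CpG dinucleotides, and much of their chromatin is condensed, although some hold distant enhancers of developmental genes and long non-coding RNAs. H3S10ph is known from condensing chromosomes at mitosis and, in cells that do not divide, from genes switched on by signalling kinases, so peaks far from any gene give a reference level for those within genes.

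The deserts numbered 1399, with a median length of 234.4 kb, and the longest spanned 4468 kb. They made up 663.1 Mb, or 27.7%, of the gap-free autosomal sequence. Their GC content was 39.3%, against 43.1% in protein-coding gene bodies, and 38.9% of their bases were soft-masked as repeats, against 27.0%. The ratio of observed to expected CpG dinucleotides was 0.157 in deserts and 0.215 in gene bodies, so the sequence had the composition that gene deserts are known for. Only protein-coding genes bounded the deserts. Long non-coding RNA genes therefore covered 10.1% of the desert sequence, and 8 deserts held 500 immunoglobulin or T cell receptor segments, which are annotated under types of their own and took up 1.10% of it.

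Few desert peaks were found in more than 1 sample. Of the desert peaks of unstimulated sample 1, 49 overlapped a desert peak of unstimulated sample 2 by at least 1 bp, which is 2.00% of the first list and, counted from the other side, 50 peaks or 0.595% of the second. The corresponding shares over all autosomal peaks up to 2000 bp were 2.69% and 0.697%. Of the desert peaks of stimulated sample 1, 42 overlapped 1 of stimulated sample 2, or 1.75% of the first list and 0.633% of the second, against 3.48% and 0.926% over all autosomal peaks. Each of these 4 desert shares was below that of all autosomal peaks, a difference that was not tested. Such shares take no account of the density of peaks, which was lower in deserts than in gene bodies in each list. Placing the peaks uniformly over the desert sequence of their own chromosome gave expected numbers of 31.0 overlaps for the unstimulated pair and 23.9 for the stimulated pair, so the observed numbers were 1.58 and 1.76 times the expectation. With peaks of −log10 p of at least 2.5 alone these values were 2.64 and 4.09, from 7 and 9 overlaps, and with lists of equal length 2.34 and 3.01, from 17 and 10. The ratio of the stimulated to the unstimulated value was 1.11, it reached 1.55 at −log10 p of at least 2.5, and with a single pair of samples per condition it has no replicate error.

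Pairs of lists from different conditions overlapped to a like degree. Unstimulated sample 1 shared 21 desert peaks with stimulated sample 1, which was 2.43 times the expected 8.64, and 33 with stimulated sample 2, or 1.35 times. Unstimulated sample 2 shared 57 with stimulated sample 1, or 1.89 times the expectation, and 113 with stimulated sample 2, or 1.31 times. The values for pairs of the same condition, 1.58 and 1.76, lay inside the range of those for pairs of different conditions, 1.31 to 2.43. Genic peaks gave values between 1.27 and 1.89 over the same 6 pairs. Between the samples of a condition the genic values were 1.40 in unstimulated and 1.59 in stimulated muscles, below the desert values. Only between unstimulated sample 2 and stimulated sample 2 was the genic value, 1.37, above the desert one.

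**Figure D1:**
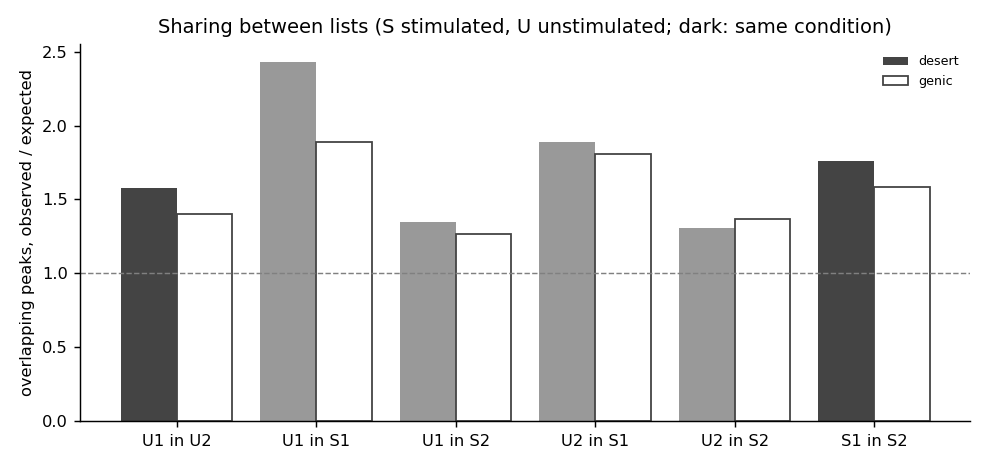
Number of overlapping peaks between each pair of lists, observed over expected under uniform placement (vertical axis, a ratio), for desert peaks (filled bars) and genic peaks (open bars), where U stands for unstimulated and S for stimulated. The 2 dark bars, pairs of the same condition at 1.58 and 1.76, lie within the range of the 4 grey bars, 1.31 to 2.43, and the dashed line marks the expectation.

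When the desert peaks of the 4 lists were merged into 19605 regions, 19322 of them (98.6%) held peaks of a single list, 271 of 2 lists, 8 of 3 lists and 4 of all 4. The 12 regions in at least 3 lists were wide, with a median of 1546.5 bp against 377 bp for regions of a single list, and merging by itself widens a region. Their median soft-masked share was 40.1%, against 24.0%. A search of the genome with blastn found another place that matched over at least 200 bp at 90% identity or more for 10 of these 12 regions, and one that covered at least 50% of the region for 6 of them. Among 484 regions of a single list, every 40th in order of position, 71 (14.7%) had such a match of 200 bp and 71 one of at least 50% of their length. Their median width was 373 bp, and a wider region has more room for a match of 200 bp. The shares were not compared at like width. The part of sequence copies in the sharing was not tested.

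The sequences below are the stretches common to all the peaks of a region (at most 300 bases), in mm10, plus strand, 5′ to 3′. They are shown because they are the desert sequences called most often, or called in both samples of a single condition. Lower case marks bases that the reference soft-masks as repeats and capitals mark the rest.
chr17:4626281-4626543, in all 4 lists: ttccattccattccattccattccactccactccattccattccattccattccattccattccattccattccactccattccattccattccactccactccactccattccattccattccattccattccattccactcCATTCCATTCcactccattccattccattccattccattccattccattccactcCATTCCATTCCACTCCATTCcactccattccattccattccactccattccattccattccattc
chr16:3246837-3247136, in all 4 lists: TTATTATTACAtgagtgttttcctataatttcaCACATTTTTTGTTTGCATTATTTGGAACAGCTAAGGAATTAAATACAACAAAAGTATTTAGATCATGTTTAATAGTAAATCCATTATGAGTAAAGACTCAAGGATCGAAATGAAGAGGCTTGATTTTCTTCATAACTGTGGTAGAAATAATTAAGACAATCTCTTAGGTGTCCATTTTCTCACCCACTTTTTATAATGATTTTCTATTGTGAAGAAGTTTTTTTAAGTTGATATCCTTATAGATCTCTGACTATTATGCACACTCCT
chr7:38862847-38862923, in 3 lists: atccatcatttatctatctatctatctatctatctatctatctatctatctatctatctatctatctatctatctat
chr9:43925799-43926006, in both stimulated lists only: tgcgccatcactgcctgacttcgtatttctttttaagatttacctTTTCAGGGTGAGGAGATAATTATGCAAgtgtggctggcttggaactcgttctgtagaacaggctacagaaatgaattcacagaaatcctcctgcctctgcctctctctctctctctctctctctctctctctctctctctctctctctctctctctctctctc
chr7:95365261-95365467, in both stimulated lists only: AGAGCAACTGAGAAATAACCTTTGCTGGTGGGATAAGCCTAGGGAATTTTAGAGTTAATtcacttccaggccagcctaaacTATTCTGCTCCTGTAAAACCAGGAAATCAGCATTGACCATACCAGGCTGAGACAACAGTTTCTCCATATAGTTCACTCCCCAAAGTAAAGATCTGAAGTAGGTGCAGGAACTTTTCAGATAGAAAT
chr4:122016061-122016347, in both unstimulated lists only: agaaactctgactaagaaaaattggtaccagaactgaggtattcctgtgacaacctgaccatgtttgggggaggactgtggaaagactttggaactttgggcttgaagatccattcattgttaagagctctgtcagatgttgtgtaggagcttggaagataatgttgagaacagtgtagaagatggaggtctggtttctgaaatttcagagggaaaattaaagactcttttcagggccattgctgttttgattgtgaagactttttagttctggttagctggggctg
chr12:5967307-5967606, in both unstimulated lists only: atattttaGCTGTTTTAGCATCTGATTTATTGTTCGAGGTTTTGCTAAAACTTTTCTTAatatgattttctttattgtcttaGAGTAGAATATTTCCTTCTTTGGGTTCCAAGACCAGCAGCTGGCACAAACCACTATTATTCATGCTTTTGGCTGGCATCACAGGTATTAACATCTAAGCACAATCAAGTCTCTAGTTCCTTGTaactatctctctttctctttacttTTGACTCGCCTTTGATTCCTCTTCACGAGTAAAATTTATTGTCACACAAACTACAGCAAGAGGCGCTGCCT

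The chromosome 17 region, chr17:4625526-4626599, lay 367.7 kb from *Arid1b*, which encodes a subunit of SWI/SNF chromatin remodelling complexes. Its peak had a fold enrichment of 2.37 in unstimulated sample 1, 7.67 in unstimulated sample 2, 4.02 in stimulated sample 1 and 15.9 in stimulated sample 2. Within their own lists these folds ranked 1617 of 8483, 3 of 32574, 4 of 10776 and 1 of 40408 autosomal peaks. The −log10 p was 2.85, 23.2, 7.98 and 69.8 in the same order, the highest of any desert peak in 3 of the lists. The 263 bases shared by its 4 peaks were a simple tandem repeat, in which TTCCA occurred 40 times and made up 76.0% of the bases. A run of TTCCA repeated 5 times, on either strand, was found in 16 of 2520618 adjacent desert windows of the same length (0.000635%). Desert peaks with such a run numbered 1 and 5 in the unstimulated lists (0.0407% and 0.0595%) and 2 and 3 in the stimulated lists (0.0832% and 0.0452%). Each of these counts includes the peak of the chromosome 17 region itself, from which the repeat unit was taken. Most desert peaks were also wider than the windows, so the shares of peaks and of windows are not on a like basis. An excess of such runs in desert peaks was not tested. No other place in the genome matched the region over 200 bp or more at 90% identity, and the longest match was 182 bp.

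Of the other regions of all 4 lists, those on chromosome 16 had low folds. At chr16:3246268-3247901, 343.1 kb from the olfactory receptor gene *Olfr161*, the folds were 1.65 and 1.77 in the unstimulated and 1.65 and 1.63 in the stimulated samples, all among the lowest of their lists. The region chr16:3121536-3123783, 467.3 kb from the same gene, had folds of 1.90 and 1.81 in unstimulated and 2.00 and 1.70 in stimulated samples, and no base was common to its 4 peaks. The desert peak with the highest −log10 p of unstimulated sample 1, at 5.17 and a fold of 3.12, lay between them at chr16:3173437-3174173 and was called in that list alone. A further region, chr11:12859034-12863011, lay 394.1 kb from *Cobl*, an actin nucleator, and spanned 3978 bp, 73.5% of them soft-masked, with 7 separate peaks from the 4 lists. The highest folds of these peaks were 2.58 and 2.14 in unstimulated samples 1 and 2 and 2.45 and 2.25 in stimulated samples 1 and 2, the first of which ranked 302 of 8483. Of the 8 regions in 3 lists, 2 lay close to each other in the desert next to *Gm12887* on chromosome 4, and chr12:114789359-114792025 lay 1243 kb from *Adam6a*. The last of the regions shown above from 3 lists, chr7:38862212-38863356, had folds of 2.30, 2.20 and 2.12 in unstimulated sample 1 and stimulated samples 1 and 2, and its common 77 bases were a tetranucleotide repeat.

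Regions with a peak in both samples of a single condition numbered 35 for the stimulated and 43 for the unstimulated muscles. Regions of 2 lists from different conditions were of a like number. Unstimulated sample 1 had 14 with stimulated sample 1 and 26 with stimulated sample 2, and unstimulated sample 2 had 48 and 105. The 35 had a median GC content of 42.7% and a median width of 803 bp, against 37.5% and 949 bp for the 43. Each of the 43 holds a peak of unstimulated sample 1, whose desert peaks had a median GC content of 36.3%, so this contrast was in part built in. The 5 stimulated regions with the highest fold in both lists lay 117.0 kb from *Thy1*, a surface glycoprotein of neurons and thymocytes, 805.5 kb from *Tenm4*, a teneurin, 185.5 kb from *Klf5*, a zinc finger transcription factor, 317.9 kb from *Ube2e3*, a ubiquitin-conjugating enzyme, and 372.1 kb from *A1bg*. The region near *Thy1*, chr9:43925733-43926413, had a fold of 2.46 in stimulated sample 1, where it ranked 1528 of 10776, and ranked 1627 of 40408 in stimulated sample 2. The folds at chr7:95365178-95365734 near *Tenm4* were 2.42 and 2.39, at ranks 1922 and 1731. The median folds of desert peaks in these lists were 2.28 and 2.08. The region near *Thy1* overlapped the lincRNA *Gm30373* and that near *A1bg* the lincRNA *Gm29904*. None of these 5 regions had another match of 200 bp in the genome. The region near *Thy1* came close to that limit, with a longest match of 189 bp, and 76.9% of its bases were soft-masked.

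The 5 unstimulated regions chosen in the same way lay 393.8 kb from *Gm12887*, 590.8 kb from *Klhl29*, 106.7 kb from *Uqcrb*, a subunit of mitochondrial complex III, 315.0 kb from *Tbc1d2b* and 449.9 kb from *4921530L21Rik*. The folds at chr4:122015897-122016468 near *Gm12887* were 2.29 and 2.33, and those at chr12:5966531-5968287 near *Klhl29*, within the lincRNA *Gm32442*, were 2.34 and 2.25. The former region has a close neighbour, chr4:122017375-122018877, with peaks of unstimulated sample 2 and both stimulated samples. That locus was therefore not free of peaks in stimulated muscles. The region near *Uqcrb* overlapped the pseudogene *Gm7896*. Of these 5 regions 3 had another match of 200 bp, and those near *Gm12887* and *Tbc1d2b* were soft-masked over 100% of their length. With 5 regions on each side, named by their rank, the contrast in copies between the conditions is a description.

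Over the whole lists, the number of desert peaks varied more between the lists of a condition than between conditions. Unstimulated muscles had 5432 ± 4210 desert peaks (SD, n = 2) and stimulated muscles 4521.5 ± 2996 (SD, n = 2), and the means had a ratio of 0.832. The two-sided exact permutation test gave p = 0.667, and with 2 samples against 2 this test cannot go below 0.333. The ratio was 0.442 without stimulated sample 2 and 1.84 without unstimulated sample 2, so its direction depended on single lists. Between samples of the same replicate number it was 0.979 and 0.790. Sample 2 of each condition had a list that reached to weaker peaks. The lower quartile of −log10 p of desert peaks was 2.45 and 2.04 in unstimulated and 2.46 and 2.03 in stimulated samples. With peaks of −log10 p of at least 2.5 alone, desert peaks numbered 1522 and 1336 in unstimulated and 1610 and 1074 in stimulated samples. Most of the gap between samples of a condition thus lay in the weaker peaks. Genic peaks numbered 9110 ± 7337 (SD, n = 2) and 13467 ± 12065 (SD, n = 2), a ratio of 1.48 that was also smaller than the spread between samples. Expressed per Mb of gap-free sequence, deserts held 3.70 and 12.7 peaks in the unstimulated and 3.62 and 10.01 in the stimulated samples, and gene bodies held 3.96, 14.4, 4.98 and 22.2.

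As a share of their list, desert peaks were fewer in both stimulated samples than in both unstimulated samples. They made up 28.9% and 25.8% of the autosomal peaks up to 2000 bp in unstimulated samples 1 and 2 and 22.3% and 16.4% in stimulated samples 1 and 2. The means were 27.4 ± 2.21% (SD, n = 2) and 19.4 ± 4.15% (SD, n = 2), a difference of −8.01 percentage points. The groups did not overlap, and the exact permutation test gave its smallest possible two-sided p of 0.333, so the test cannot reach significance here. Within replicate numbers the difference was −6.64 points for samples 1 and −9.38 points for samples 2. The methods state a calling cutoff of 0.001, a −log10 p of 3, which most autosomal peaks up to 2000 bp in the deposited lists do not reach. With peaks of at least that value alone the order was the same, and the shares were 27.6% and 24.7% against 23.0% and 15.5%. It was also the same when every list was cut to the 8546 best peaks or to its full length if shorter, at 28.9%, 25.2%, 23.2% and 15.2%. The mean share was lower in stimulated muscles on 19 of 19 autosomes, by 3.42 to 11.8 points, and both stimulated samples lay below both unstimulated samples on 15 of them, chromosomes 9, 13, 14 and 16 being the exceptions. The autosomes of a list share a library, so they are not replicates and this count is a description.

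Against uniform placement on their own chromosome, outside sequence gaps, 2373 and 8996 desert peaks were expected in unstimulated samples 1 and 2 and 2971 and 11067 in stimulated samples 1 and 2. Observed over expected numbers were 1.03 and 0.935 in unstimulated and 0.809 and 0.600 in stimulated samples. Their means were 0.985 ± 0.0706 (SD, n = 2) and 0.704 ± 0.148 (SD, n = 2), with no overlap of the groups and an exact two-sided permutation p of 0.333. Unstimulated muscles therefore held about as many desert peaks as uniform placement gave, and stimulated muscles fewer. With placement on sequence that is not soft-masked, the values were 1.12 and 0.938 in unstimulated and 0.794 and 0.599 in stimulated samples. Reads that map to several places had been removed, and the part of sequence where reads cannot be placed was not tested. Genic peaks were above the expectation in each list, by a factor of 1.13 and 1.07 in unstimulated and 1.12 and 1.32 in stimulated samples.

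This order did not hold once GC content was taken into account. When each peak was placed only within 10 kb windows of its own class of GC content, of which there were 20, observed over expected numbers were 0.792 and 0.983 in unstimulated and 0.922 and 0.760 in stimulated samples. Deserts were then below the expectation in all 4 lists, the lowest stimulated and the lowest unstimulated sample were 0.760 and 0.792, and the difference of the means changed from −0.280 to −0.0464, with overlapping groups and an exact permutation p of 0.667. Unstimulated sample 1 moved down, from 1.03 to 0.792, and each of the other 3 lists moved up. This placement was chosen after the data had been seen.

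**Figure D2:**
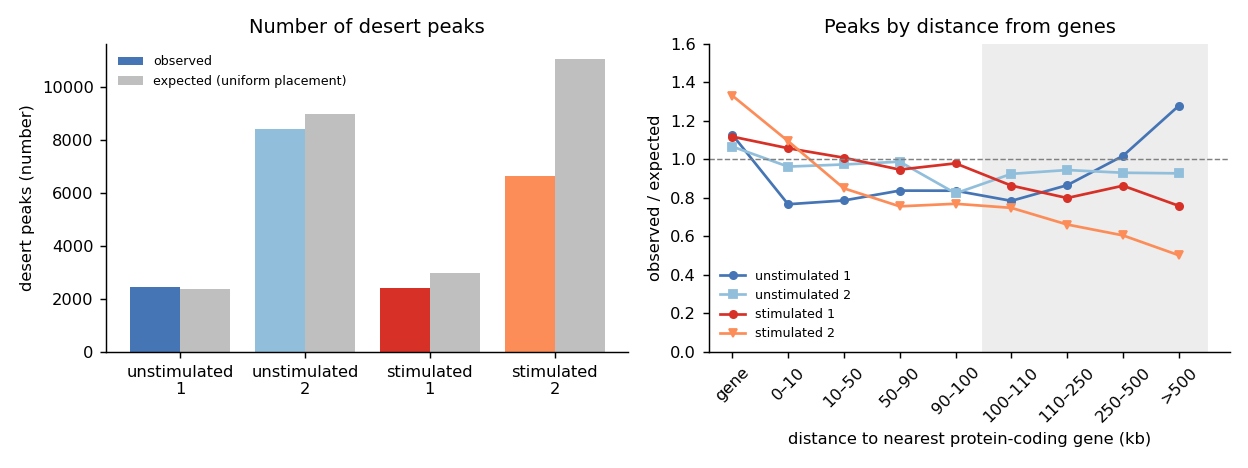
Left, the number of desert peaks in each of the 4 lists (coloured bars) beside the number expected under uniform placement (grey bars). Right, observed over expected numbers of peaks against the distance to the nearest protein-coding gene in kb, with deserts shaded, where beyond 500 kb unstimulated sample 1 lies at 1.28 and stimulated sample 2 at 0.502.

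The trend with distance differed between the lists. In stimulated sample 2 the observed over expected number was 1.33 in gene bodies or across their edges, 1.10 within 10 kb of them, 0.748 at 100 to 110 kb and 0.502 beyond 500 kb, where 1684 peaks lay. Stimulated sample 1 had a smaller range, from 1.12 in genes to 0.864 at 100 to 110 kb and 0.759 beyond 500 kb (686 peaks). In unstimulated sample 2 all bands lay between 0.824 and 1.07, with 0.928 beyond 500 kb (2544 peaks). Unstimulated sample 1 went the other way within the deserts, from 0.785 at 100 to 110 kb to 1.28 beyond 500 kb (927 peaks). Beside the 100 kb limit itself there was no step common to the lists. From 90 to 100 kb the unstimulated lists held 85 and 318 peaks and the stimulated lists 125 and 367, and from 100 to 110 kb there were 73, 327, 101 and 327.

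The base composition set unstimulated sample 1 apart from the other lists. The median GC content of desert peaks was 36.3% in unstimulated sample 1, 41.1% in unstimulated sample 2, 41.3% in stimulated sample 1 and 40.8% in stimulated sample 2, against 39.3% for all desert sequence. That 39.3% is a share of bases and not a median over stretches as wide as peaks. The means were 38.7 ± 3.42% (SD, n = 2) and 41.0 ± 0.343% (SD, n = 2), and the exact permutation test gave p = 0.667. Without unstimulated sample 1 the difference between stimulated and unstimulated changed from 2.33 to −0.0842 percentage points. Genic peaks had medians of 38.8%, 44.9%, 45.6% and 45.2% in the same order, so desert peaks were poorer in GC in 4 of 4 lists, with a mean difference of −3.75 ± 0.889 points (SD, n = 4). Across 4 lists an exact paired permutation test cannot give a two-sided p below 0.125, and it gave 0.125 here. Desert and genic sequence as a whole differed in the same direction.

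**Figure D3:**
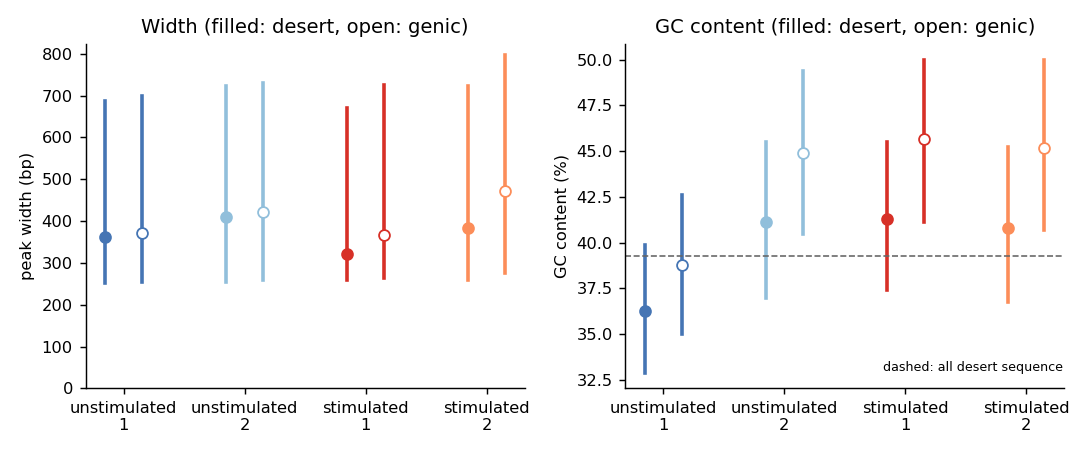
Median (points) and interquartile range (bars) of peak width in bp (left) and of GC content in % (right) for desert peaks (filled) and genic peaks (open) of the 4 lists. Desert medians lie below genic medians in every list. The median of desert peaks of unstimulated sample 1, 36.3%, lies below the dashed line, which marks the GC share of all desert bases, 39.3%.

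Within the deserts, the 10 kb windows were ordered by GC content and divided into 5 classes of like size, the lowest from 30.6% to 36.6% and the highest from 41.7% to 55.2%. The density of unstimulated sample 1 went from 1.73 times its own desert mean in the lowest class, with 839 peaks, to 0.389 in the highest, with 190 peaks. The densities of unstimulated sample 2 stayed between 0.965 and 1.03 and those of stimulated sample 1 between 0.907 and 1.04. Stimulated sample 2 went the opposite way from unstimulated sample 1, from 0.911 in the lowest to 1.26 in the highest class. Across the 413 deserts with at least 500 kb of gap-free sequence, the correlation of peak density with the GC content of the desert was −0.403, 0.0518, 0.0649 and 0.246 for unstimulated samples 1 and 2 and stimulated samples 1 and 2. These values describe each list, since deserts of a list share a library.

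Windows of like GC content were also compared between deserts and gene bodies. In stimulated sample 2 the desert density was 0.652 of that in gene bodies in the lowest class and 0.489 in the highest. In unstimulated sample 1 it was between 0.532 and 0.665, and in unstimulated sample 2 between 0.858 and 0.986. Stimulated sample 1 went from 0.999 in the lowest to 0.649 in the highest class. Within a class the ratio was thus at or below 1 in all 4 lists. In the highest class both stimulated samples, at 0.649 and 0.489, lay below both unstimulated samples, at 0.651 and 0.858, the closest values being nearly equal. In the other classes the groups overlapped. The highest class is broad and holds 49726 windows of gene bodies against 13155 of deserts, so GC content was alike within classes and not equal. Without matching, the ratio of desert to genic density was 0.912 and 0.872 in unstimulated and 0.725 and 0.453 in stimulated samples, which did not overlap (exact permutation p = 0.333).

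**Figure D4:**
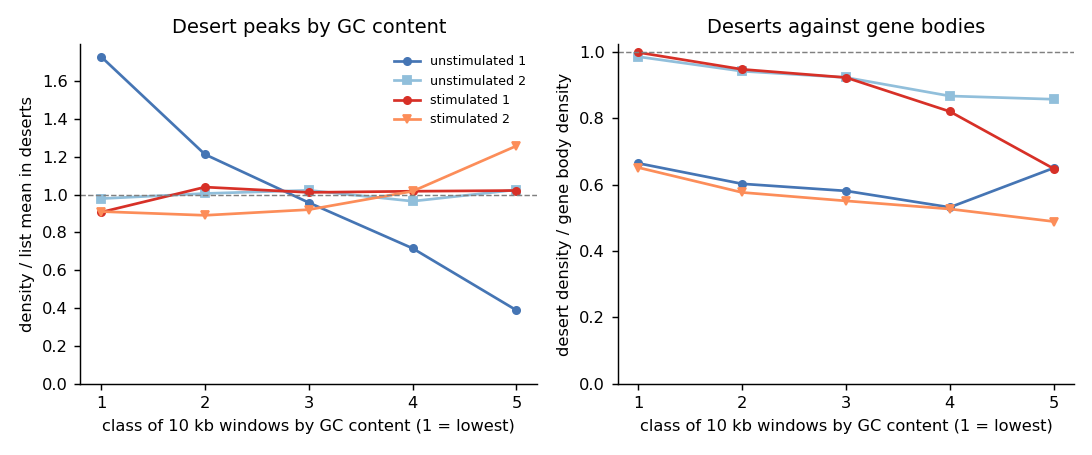
Left, density of desert peaks in 5 classes of 10 kb windows by GC content (1 the lowest), relative to the mean desert density of each list, where unstimulated sample 1 goes from 1.73 to 0.389. Right, density of peaks in deserts over that in gene bodies within the same classes, where the 20 points lie between 0.489 and 0.999.

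Repeats and CpG dinucleotides in desert peaks also differed from those in genic peaks. The median soft-masked share was 20.7% and 24.4% in unstimulated and 29.3% and 23.4% in stimulated desert peaks. The upper quartiles were 39.7% and 53.9% in unstimulated and 60.8% and 50.7% in stimulated desert peaks. The 38.9% of all desert sequence is a share of bases and not a median over peaks. Whether desert peaks hold fewer repeats than desert sequence was therefore not tested. The median share lay between 16.0% and 19.2% in genic peaks. In 4 of 4 lists it was lower than in desert peaks (exact paired permutation p = 0.125, the smallest possible). The median ratio of observed to expected CpG dinucleotides was 0.110 and 0.116 in unstimulated and 0.116 and 0.124 in stimulated desert peaks, against 0.149 to 0.185 in genic peaks. Neither measure separated the conditions in deserts.

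Desert peaks were narrow. Their median width was 362 bp and 410 bp in unstimulated samples 1 and 2 and 321 bp and 382.5 bp in stimulated samples 1 and 2. The means of 386 ± 33.9 bp and 351.75 ± 43.5 bp (SD, n = 2 each) differed by less than the spread between samples (exact permutation p = 0.667), and the difference between samples of the same replicate number was −41 bp and −27.5 bp. Genic peaks had medians of 372.5 bp, 421 bp, 366 bp and 471 bp. Desert peaks were thus narrower in 4 of 4 lists, with differences of −10.5 bp and −11 bp in unstimulated and −45 bp and −88.5 bp in stimulated samples and an exact paired permutation p of 0.125. Peaks over 1000 bp were 5.50%, 6.15%, 5.20% and 7.14% of desert peaks and 5.41%, 6.78%, 6.87% and 10.8% of genic peaks. The genic shares were higher in both stimulated than in both unstimulated samples, and the desert shares overlapped. At the limit of 2000 bp, the widest desert peaks counted had 1987 bp, 1948 bp, 1929 bp and 1929 bp, and the limit left out 7 and 15 wider ones in unstimulated and 2 and 13 in stimulated samples.

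Called desert peaks had median folds close to those of genic peaks of the same list. The median fold was 2.25 and 2.08 in unstimulated and 2.28 and 2.08 in stimulated desert peaks, and 2.25, 2.09, 2.27 and 2.09 in genic peaks. The difference averaged 0.00156 ± 0.00927 (SD, n = 4), with an exact paired permutation p of 0.875. Both classes hold only peaks that passed the cutoff of the caller. The lower quartile of the fold was 2.21 in unstimulated sample 1 and 2.02 in unstimulated sample 2, for desert and genic peaks alike. Medians so near the cutoff can hardly differ, so they do not show that H3S10ph is equal in deserts and genes. A −log10 p of at least 3 was reached by 284 and 225 desert peaks (11.6% and 2.68%) in unstimulated and by 429 and 198 (17.9% and 2.98%) in stimulated samples. Over all autosomal peaks up to 2000 bp the shares were 12.1%, 2.8%, 17.3% and 3.16% in the same order, so desert peaks were close to peaks at large. A q-value of at most 0.05 was reached by 0 and 4 desert peaks in unstimulated and by 1 and 5 in stimulated samples. Over all autosomal peaks it was reached by 11 and 16 (0.13% and 0.0491%) and by 10 and 23 (0.0928% and 0.0569%), and among genic peaks by 0, 3, 2 and 11.

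Relative to uniform placement, close pairs of desert peaks were most frequent in unstimulated sample 1. Neither desert nor genic peaks had a pair with centres within 1 kb in any list, and the broad setting of the caller joins close peaks. Up to 10 kb there were 139 pairs in unstimulated sample 1, against 91.3 expected under uniform placement of the same number of desert peaks, a ratio of 1.52. The ratios were 0.961 in unstimulated sample 2 (1016 pairs), 0.926 in stimulated sample 1 (80 pairs) and 1.05 in stimulated sample 2 (696 pairs). The means were 1.24 ± 0.397 (SD, n = 2) in unstimulated and 0.989 ± 0.0903 (SD, n = 2) in stimulated muscles (exact permutation p = 0.667), and without unstimulated sample 1 the difference went from −0.253 to 0.0279. Genic peaks had ratios of 2.12, 0.968, 1.24 and 1.08, each above the desert value of its list. Counted from 1 kb to 10 kb, which leaves out the empty distances, the desert ratios were 1.69 and 1.07 in unstimulated and 1.03 and 1.17 in stimulated samples, and the genic ones 2.37, 1.09, 1.39 and 1.21. With peaks of −log10 p of at least 3 alone the desert ratios up to 10 kb were 4.14 and 1.31 in unstimulated and 0.364 and 0 in stimulated samples. These groups did not overlap (exact permutation p = 0.333), and they rest on 5, 1, 1 and 0 pairs.

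**Figure D5:**
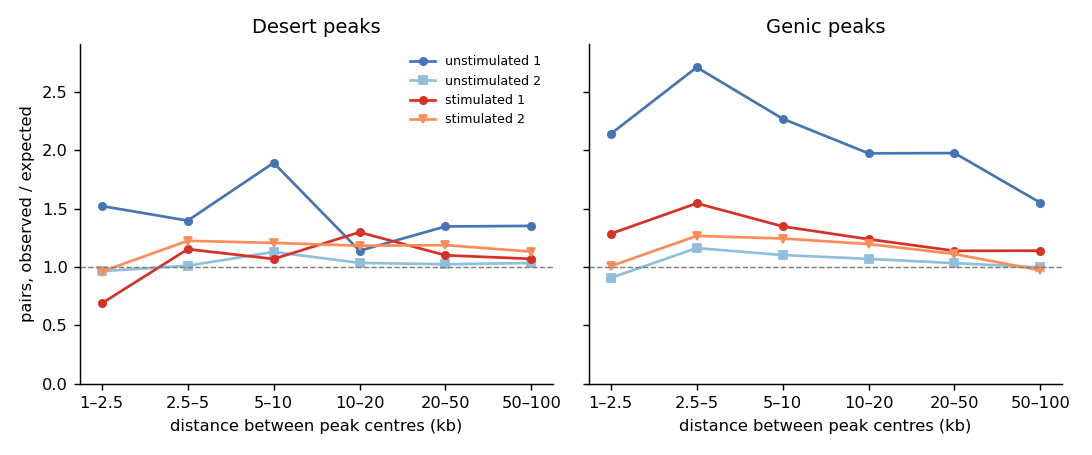
Pairs of peak centres, observed over expected under uniform placement, by the distance between the centres in kb, for desert peaks (left) and genic peaks (right) of the 4 lists. Desert peaks of unstimulated sample 1 reach 1.89 at 5 to 10 kb and genic peaks of that list 2.71 at 2.5 to 5 kb, while the other lists lie closer to the dashed line at the expectation.

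Some desert peaks lay in non-coding genes. Peaks that overlapped a long non-coding RNA gene numbered 246 and 876 in unstimulated samples 1 and 2 and 290 and 817 in stimulated samples 1 and 2. Relative to uniform placement within the deserts these were 1.00 and 1.02 in unstimulated and 1.19 and 1.20 in stimulated samples. The means of 1.01 ± 0.0155 and 1.19 ± 0.00715 (SD, n = 2 each) differed by more than the spread between samples, the groups did not overlap, and the exact permutation test gave 0.333, the smallest p it allows. GC content was not matched in this comparison. Pseudogenes gave 0.648 and 1.03 in unstimulated and 1.22 and 0.799 in stimulated samples, with overlap of the groups. Deserts with receptor segments held 25, 89, 28 and 59 desert peaks, or 0.889% to 1.17% of each list, beside their 1.10% of the sequence.

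Individual deserts held few peaks each. At least 1 peak lay in 45.7% and 74.6% of the 1399 deserts in unstimulated and in 54.0% and 74.1% in stimulated samples. Of the 413 large deserts, 45 and 0 held no peak in unstimulated and 23 and 1 in stimulated samples, and the median density was 3.49, 12.3, 3.40 and 8.92 peaks per Mb. Across these deserts the correlation of density between lists ranged from −0.0966 to 0.193, and across 65593 windows of 10 kb from 0.00428 to 0.0164. Most windows held no peak of a given list, and counts so sparse keep a correlation low by themselves. These values therefore do not show whether the lists had the same underlying density. The densest of the large deserts, after scaling each list to its own desert mean, lay on chromosome 4 between *Mpdz*, a scaffold protein gene, and *Nfib*, a transcription factor gene, with 9, 11, 5 and 16 peaks in unstimulated samples 1 and 2 and stimulated samples 1 and 2, on average 2.42 times the mean. Next came the desert after *Gm12887* on chromosome 4, with 12, 7, 10 and 8 peaks and a mean of 2.30, which also held 2 of the regions in 3 lists. The desert between *Gm5148* and *Ankrd50* held 0, 7, 7 and 15 peaks, that between *Btg1* and the decorin gene *Dcn* held 2, 18, 8 and 7, and that next to *Nr2f2*, a nuclear receptor gene, held 4, 11, 5 and 22. Scaled to the desert mean of each list, the desert between *Gm5148* and *Ankrd50* stood at 0 and 1.05 in unstimulated and 3.68 and 2.85 in stimulated samples, and that next to *Nr2f2* at 1.38 and 1.11 against 1.76 and 2.81. In these 2 deserts both stimulated samples lay above both unstimulated ones, and in the other 3 the groups overlapped. The deserts were ranked on these same densities, so the values are a description.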

How the data were processed

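H3S10ph ChIP-seq was made from 4 pooled muscle samples. According to the study's methods and the labels, the authors aligned reads to mm10 with BWA 7.12, removed reads that map to several places, thinned replicates to the smallest number of reads and called broad peaks with MACS2 2.1.1 against input DNA, per sample. The deposited lists give for each peak a fold enrichment (a ratio to background), −log10 p and −log10 q. The deposited score was not used. Peaks too weak to be called leave no trace in the lists.

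Distances were taken to GENCODE M21 protein-coding genes, and bases from GRCm38.p6, whose autosomes are those of mm10. Expected numbers under uniform placement were calculated exactly, with no simulation, and the calculations were tested on simulated data. Python 3.11.15, numpy 2.4.6, pandas 2.3.3, matplotlib 3.10.9 and blastn 2.17.0 were used. Conditions were compared over samples with exact permutation tests.

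Named regions were those in all 4 or in 3 lists (12 together), the 5 regions of each condition with the highest lower fold of both lists, the desert peak with the highest −log10 p of each list and the 5 densest deserts of at least 500 kb. The members, lists and tests were chosen with earlier results of these data known. Alternatives were distances of 50 kb and 250 kb, −log10 p of at least 2.5, equal list lengths, any annotated gene, no limit on width, other placement spaces, pairs within 50 kb, merging within 1000 bp, overlap of 50%, each replicate left out and a replicate block. Placement by GC content, receptor segments as genes, pairs from 1 kb and −log10 p of at least 3 were added after seeing the data.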

Additional observations from a re-analysis of the deposited data

How the results depend on the processing

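Results that the alternatives moved by more than the spread between samples were 3. With any annotated gene bounding the deserts, the shares were 6.67% and 5.70% in unstimulated and 4.79% and 3.20% in stimulated samples, a difference of −2.19 points in place of −8.01, where fewer peaks qualify. With placement by GC content, the difference of observed over expected numbers was −0.0464 in place of −0.280. With −log10 p of at least 3, the difference in clustering was −2.55 in place of −0.253, from 4.14, 1.31, 0.364 and 0 in the 4 lists. The sharing gave no value at that threshold because no peak of the unstimulated pair overlapped. With each replicate left out in turn, the difference in share ranged from −10.9 to −5.08 points, that against uniform placement from −0.385 to −0.176, that in width from −65 to −3.5 bp, that in GC content from −0.0842 to 4.75 points and that in clustering from −0.533 to 0.0279, while the number ratio ranged from 0.442 to 1.84. The number ratio was 1.23, and the width difference 4.25 bp, at −log10 p of at least 3. With a replicate block the number ratio was 0.879 and the share difference −8.01 points (exact permutation p = 0.5, the smallest for 2 pairs). The study took the contralateral muscles from the same mice, but neither labels nor methods say that pools of the same replicate number hold the same mice, and 2 pairs are too few to check it. Depth is unknown, the number of lists limits the precision, and most peaks lie near the threshold of the caller.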

Other observations

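The emptiest of the large deserts, chosen after their values were seen, lay on chromosome 12 between *Ywhaq* and *Gm10330*, with 0, 3, 1 and 4 peaks over 2161 kb in unstimulated samples 1 and 2 and stimulated samples 1 and 2. Next was the desert between *5730507C01Rik* and *Gm21863* on the same chromosome, with 1, 2, 2 and 3 peaks over 1219 kb. Their GC contents of 44.7% and 45.1% were above the 39.3% of all desert sequence. Deserts beside *Satb1*, a chromatin organiser, and *Shh*, a signalling protein of development, also held few peaks, with 0, 2, 0 and 5 and with 0, 3, 0 and 4.

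On chromosome X, which the comparisons left out, unstimulated sample 1 had 164 peaks in deserts among 502 peaks, and the other lists had 3 of 18, 0 of 18 and 4 of 15. All samples were labelled male.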
